A study of Homo sapiens with 2 samples.

Results

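The TNF superfamily comprises ligands, most of them trimeric proteins anchored in the membrane, and the receptors that bind them. TNF receptor associated factors (TRAFs) and the adaptors TRADD and RIPK1 couple these receptors to NF-kB, to the kinase JNK and, for receptors with a death domain, to caspases. In Hodgkin's lymphoma (HL) the family is prominent, because CD30, the product of TNFRSF8, is a diagnostic surface marker of the tumor cells, and CD40, CD30 and TRAF1 belong to the NF-kB circuit for which these cells are known. The genes described here were chosen by their symbols alone: those that begin with TNFRSF or TNFSF, together with CD27, CD40, CD40LG, CD70, LTA, LTB, LTBR, TNF, TRADD, RIPK1 and TRAF1 to TRAF6. On the arrays 38 of the 11963 genes with a probe set of 1 symbol met this rule, namely 19 receptors, 13 ligands and 6 adaptors, with 59 probe sets in all. CD40LG, RIPK1 and TRAF2 were not analysed here, since no probe set was paired with any of them alone in the annotation used.

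L-428 is an established line of HL tumor cells. One array was hybridized with RNA from L-428 cells that received the plasmid pcDNA6.2-GW/EmGFP-miR-DUSP5, which expresses an artificial microRNA against DUSP5, a nuclear phosphatase of ERK. The other array was hybridized with RNA from L-428 cells given pcDNA6.2-GW/EmGFP-miR-neg, the control vector of the same backbone, so that cells of both conditions had been transfected. Each condition had 1 array, so no replicate spread and no p-value can be given for any difference below.

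DUSP5 had a signal intensity of 368 after knock-down and 628 with control vector, or 58.6% of control (log2 ratio -0.77). The median signal was 164 on the knock-down array and 161 on the control array. In place of a replicate error, the standard deviation (SD) of a log2 ratio was taken from pairs of probe sets of the same gene. At mean signals of 200 or more this SD narrowed with brightness, with values of 0.41 up to 500, 0.36 up to 1000, 0.30 up to 3000 and 0.26 beyond, and dimmer pairs had 0.73 (100 to 200) and 1.19 (below 100). The spread between cultures is no part of this SD. Genes were therefore called measured only at a mean signal of at least 200, which 6301 genes and 19 of the 38 family genes reached. The reference gene GAPDH, which encodes an enzyme of glycolysis, was itself above control (median of its 3 probe sets 0.98 on the log2 scale), so that every ratio would be lower by that amount on a scale set by GAPDH. Of the 8 markers listed for Hodgkin lines, 7 were measured, while none of 5 T cell, 3 monocyte and 3 natural killer cell markers was. Among these 7, FUT4 was lower after knock-down (317, against 756 in control cells). The others were higher, with log2 ratios from 0.21 (CD40) to 1.07 (TNFRSF8). All 8 listed markers summed to 30772 after knock-down and 20869 in control cells. Such a sum is weighted toward bright probe sets, here FSCN1 (9263 and 6580) and IRF4 (7311 and 5241). TNFRSF8, TRAF1 and CD40 of this list are themselves genes of the family, so the list is not independent of it. Of 6 B cell markers with a value, only CD74 (23929 after knock-down and 14318 in control cells) and PAX5 (211 and 268) were measured. The list summed to 24516 and 14981, nearly all of it CD74. Like PAX5, the dim markers CD79A (42.3 and 82.3) and CD22 (90.7 and 187) were lower after knock-down. MS4A1 (170 and 74.9) and CD79B (73.3 and 50.5) were higher. The T cell markers summed to 398 after knock-down and 271 in control cells, with CD3D at 189 and 27.3, CD3E at 80.9 and 56.3, CD3G at 20.1 and 16.7, CD2 at 90.3 and 85.6 and CD28 at 17.5 and 84.8. CD3D accounted for most of the higher sum, and CD28 differed in the other direction.

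Promoter sequences are shown for measured genes only. The genes are the receptor with the lowest ratio (TNFRSF9), the receptor with the highest (TNFRSF8) and the ligand with the lowest (LTA). The sequences are from RefSeq, assembly GRCh38.p14. Each runs from 250 bases before the transcription start to base 30 of the transcript, written 5′ to 3′ on the strand of the gene. Capitals mark matches to the AP-1 motif TGANTCA or to the NF-kB consensus motif, searched on both strands. The window of TNFRSF9 is chr1:7940810-7941089 on the minus strand, that of TNFRSF8 is chr1:12063053-12063332 on the plus strand, and that of LTA, the second of its 2 windows, is chr6:31572039-31572318 on the plus strand.
TNFRSF9: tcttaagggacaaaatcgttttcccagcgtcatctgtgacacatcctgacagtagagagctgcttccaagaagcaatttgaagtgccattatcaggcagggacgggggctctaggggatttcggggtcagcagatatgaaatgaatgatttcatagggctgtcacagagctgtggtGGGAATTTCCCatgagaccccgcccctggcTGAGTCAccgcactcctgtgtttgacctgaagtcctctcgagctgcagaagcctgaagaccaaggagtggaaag
TNFRSF8: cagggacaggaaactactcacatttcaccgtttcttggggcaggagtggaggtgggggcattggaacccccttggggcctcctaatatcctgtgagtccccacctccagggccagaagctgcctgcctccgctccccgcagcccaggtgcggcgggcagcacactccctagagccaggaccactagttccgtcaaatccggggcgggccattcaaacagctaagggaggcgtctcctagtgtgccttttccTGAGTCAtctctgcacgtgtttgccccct
LTA: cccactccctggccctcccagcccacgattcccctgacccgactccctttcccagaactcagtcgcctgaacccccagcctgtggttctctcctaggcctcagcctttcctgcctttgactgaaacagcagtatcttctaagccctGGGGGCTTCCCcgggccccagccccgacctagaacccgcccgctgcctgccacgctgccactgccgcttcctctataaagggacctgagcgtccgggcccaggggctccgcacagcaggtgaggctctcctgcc

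With the first transcribed base counted as 1, the TNFRSF9 window held an NF-kB match that begins at base -74, overlapped by a second match on the other strand, and an AP-1 match at bases -44 to -38. TNFRSF8 held the same 7 letters of the AP-1 motif at bases 2 to 8 and no NF-kB match. In the LTA window, 2 overlapping NF-kB matches began at bases -104 and -103, and the first LTA window (chr6:31571849-31572128) held no match to either motif. Windows were found for 27 of the 38 genes, which had 36 windows. An AP-1 match was present in 6 of these 36 and in 7.35% of all 35116 promoter windows, each cut to the same 280 bases, and an NF-kB match in 10 of the 36 and in 10.6% of all. Nearly identical windows of the same gene were counted separately. Those of TNFSF14 each held both motifs, and those of LTB each held an NF-kB match. Among the 21 windows of measured family genes, only those of TNFRSF8 and TNFRSF9 held an AP-1 match, and the ratios of these 2 genes had opposite signs. An NF-kB match was present in 5 of the 21 (23.8%). These windows were of TNFRSF9 (log2 ratio -1.93), LTA (-0.98), TRAF3 (-0.56), TNFRSF14 (0.08) and TNFSF13 (0.65), so the ratios again had both signs. Such matches describe the letters of the window and do not show that a factor was bound.

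Among the receptors, TNFRSF8 was higher and TNFRSF9 and TNFRSF10B were lower on the knock-down array. TNFRSF8 encodes CD30, the signal of which runs through TRAF proteins. It gave 3618 after knock-down and 1724 with control vector at its only probe set, which is 2.10-fold or 1.07 on the log2 scale (SD 0.30). In such RNA of whole cultures, more expressing cells and more RNA per cell cannot be told apart. Of the 6301 measured genes, 221 (3.51%) had a ratio as high. On the scale set by GAPDH, TNFRSF8 was close to control at 0.09.

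TNFRSF9 encodes CD137, a costimulatory receptor best known from activated T cells. Its signal was 239 after knock-down and 911 with control vector, only 26.3% of the control signal (log2 ratio -1.93, SD 0.36). This was the lowest ratio of any measured gene of the family, and 55 of all measured genes (0.873%) had one as low. The other probe set of TNFRSF9, with a mean signal just under 200, gave 115 after knock-down and 280 with control vector, a log2 ratio of -1.28. Both probe sets thus lay below control by more than the SD at their signal. The gene lies on chromosome 1 at 7915871 to 7940839, and TNFRSF8 on the same arm at 12063303 to 12144207, about 4122 kb away.

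TNFRSF10B encodes DR5, a death domain receptor for the apoptosis ligand TRAIL. At its brightest probe set it gave 473 after knock-down and 1094 with control vector, a log2 ratio of -1.21 (SD 0.36), or 43.3% of control. As low a ratio was found for 277 measured genes (4.40%). Its other probe sets, both of the type _x_at, whose probes can match further transcripts, gave log2 ratios of -0.76 and 0.16. The direction was therefore the same at 2 of 3 probe sets, and the mean over all of them was -0.60.

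CD40, the costimulatory receptor of B cells, had 1328 after knock-down and 1150 with control vector, a log2 ratio of 0.21 (SD 0.30). Its 4 probe sets all had ratios above 0, from 0.21 to 0.68, the highest at a mean signal under 200. TNFRSF25, the death domain receptor DR3, gave 511 after knock-down and 355 with control vector (log2 ratio 0.53, SD 0.41). Its 4 dimmer probe sets, all under a mean signal of 200, ranged from 0.09 to 3.24. TNFRSF11A, the receptor RANK, gave 432 and 329 (0.39, SD 0.41), and TNFRSF14, the herpesvirus entry mediator, gave 331 and 314 (0.08, SD 0.41), in each case after knock-down and with control vector. None of these 4 receptors reached a 1.5-fold difference, and the ratio exceeded 1 SD only for TNFRSF25.

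**Figure D1:**
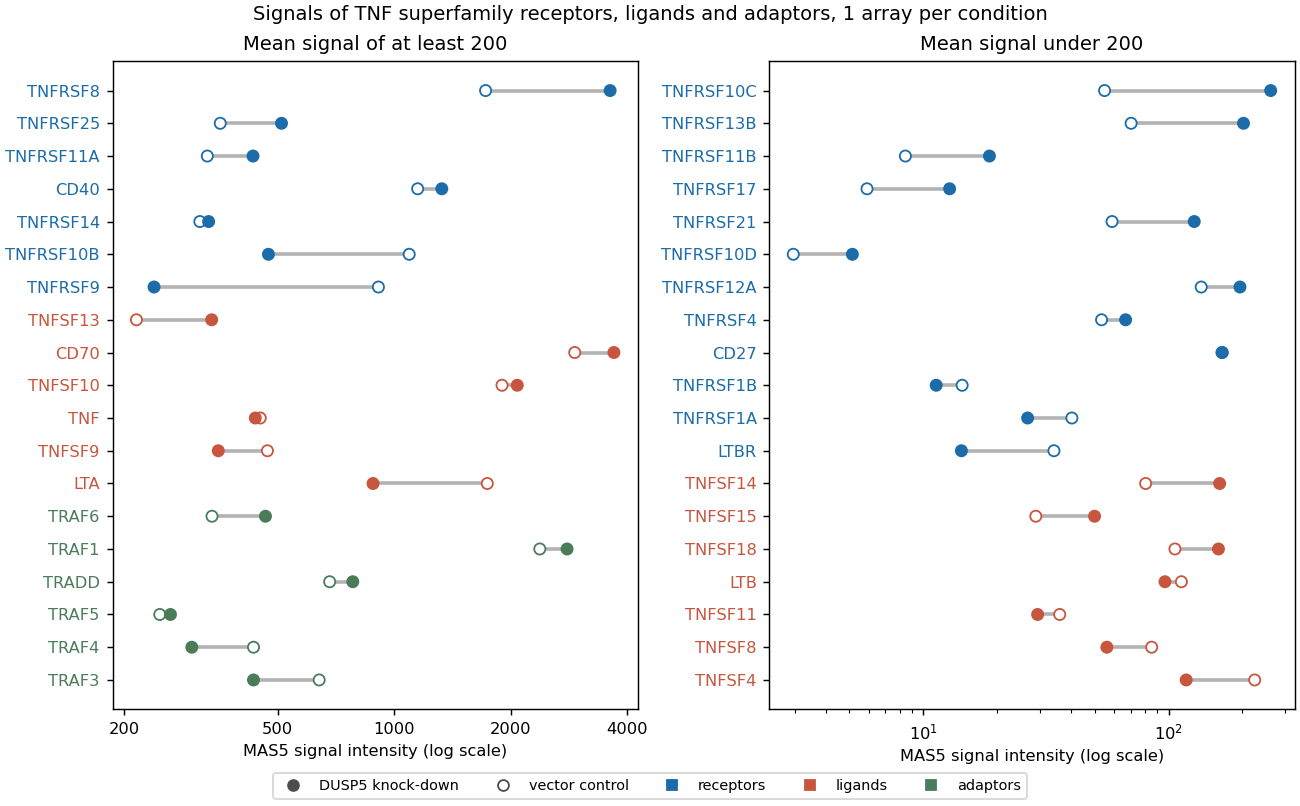
MAS5 signal intensity (log axis) on the knock-down array (filled circles) and the control array (open circles) for the 19 measured genes (left) and the 19 genes with a mean signal under 200 (right), 1 array per condition. The widest gaps on the left are those of TNFRSF9 (239 and 911), TNFRSF10B (473 and 1094), TNFRSF8 (3618 and 1724) and LTA (882 and 1741).

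Of the measured ligands, LTA was at least 1.5-fold lower after knock-down and TNFSF13 was at the edge of the 1.5-fold rule on the other side. LTA encodes lymphotoxin alpha, which binds the TNF receptors as a soluble trimer and joins LTB in a membrane complex. It gave 882 after knock-down and 1741 with control vector at its only probe set, a log2 ratio of -0.98 (SD 0.30), or 50.6% of control. A ratio as low was found for 477 measured genes (7.57%). TNF, the neighboring gene that starts 1.24 kb downstream of LTA on chromosome 6, gave 437 after knock-down and 451 with control vector (-0.04, SD 0.41). LTB, 2.22 kb beyond TNF, was not measured, with 96.7 and 113 in the same order. In this cluster of ligand genes the difference from control thus exceeded the SD for LTA and lay within it for TNF.

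TNFSF13 encodes APRIL, a ligand of the B cell receptors TNFRSF13B and TNFRSF17. It gave 337 after knock-down and 216 with control vector, a log2 ratio of 0.65 (SD 0.41), at 1 probe set of the type _x_at. With 32 added to each signal this ratio was 0.58 and no longer reached 1.5-fold, and on the scale of GAPDH it was -0.33. The genes nearest to the 1.5-fold rule on its other side were TRAF3 (-0.56), TRAF4 (-0.53) and TNFRSF25 (0.53).

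CD70, the ligand of CD27, had 3699 after knock-down and 2930 with control vector (log2 ratio 0.34, SD 0.26). TNFSF10, the ligand TRAIL, gave 2081 and 1901 (0.13, SD 0.30), and its 3 probe sets all lay above 0, from 0.06 to 0.32. TNFSF9, the ligand of CD137, gave 351 after knock-down and 470 with control vector (-0.42, SD 0.41). Both partners were measured for 3 pairs of a ligand and its receptor. In the pair of TNFSF9 and TNFRSF9, the ligand had a log2 ratio of -0.42 and the receptor one of -1.93. In the pair of TNFSF10 and TNFRSF10B, the ligand had 0.13 and the receptor -1.21. In both pairs the receptor was further from control than the ligand. For LTA and TNFRSF14, which LTA binds with less affinity than the TNF receptors, the order was the opposite, with -0.98 for the ligand and 0.08 for the receptor. CD27, the receptor of CD70, and the TNF receptors TNFRSF1A and TNFRSF1B were not measured.

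All 6 adaptors with a probe set were measured, and none of them differed by 1.5-fold at its brightest probe set. TRAF1, an NF-kB target that modulates signals of other TRAF proteins, gave 2800 after knock-down and 2380 with control vector (log2 ratio 0.23, SD 0.30). TRAF6, a ubiquitin ligase that also serves interleukin and Toll-like receptors, gave 465 and 338 (0.46, SD 0.41). TRAF5 gave 264 and 248 (0.09, SD 0.41). TRADD, the death domain adaptor of TNF receptor 1, gave 782 and 681 (0.20, SD 0.36), with -0.07 at its second probe set of similar brightness. Another, dim probe set of TRADD gave 37.3 and 6.61, a log2 ratio of 2.50 (SD 1.19), which brought the mean over all 3 to 0.88, past 1.5-fold. At the brightest probe set, TRAF1, TRAF5 and TRADD lay within 1 SD of control and TRAF6 just beyond it.

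TRAF3, which keeps the kinase MAP3K14 low and so restrains the noncanonical NF-kB pathway, gave 433 after knock-down and 640 with control vector, a log2 ratio of -0.56 (SD 0.36). Its other probe set, of the type _x_at, gave 385 and 279, a log2 ratio of 0.46, so that the direction for TRAF3 depended on the probe set and their mean was -0.05. TRAF4 was below control at both probe sets, with 299.8 and 433 at the brighter (-0.53, SD 0.41) and a log2 ratio of -0.29 at the other. Of the 6 measured family genes with several probe sets at a mean signal of at least 200, 3 had ratios of 1 sign (CD40, TNFSF10 and TRAF4) and 3 did not (TNFRSF10B, TRADD and TRAF3).

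**Figure D2:**
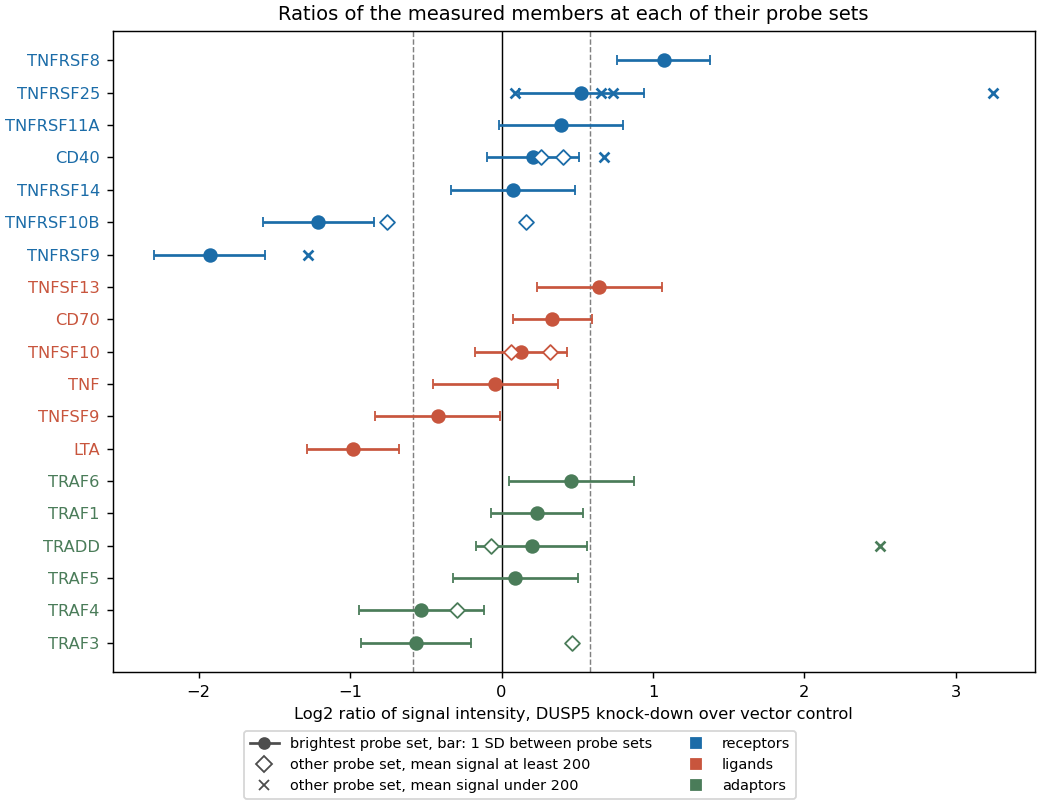
Knock-down over control, as log2 ratio of signal intensity, for the 19 measured genes at each of their probe sets. Circles are the brightest probe set with 1 SD between probe sets at that signal, diamonds and crosses are the other probe sets of the gene, and dashed lines mark 1.5-fold. TNFRSF9 lies farthest to the left at -1.93 with its other probe set at -1.28, whereas the probe sets of TNFRSF10B and TRAF3 fall on both sides of 0.

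Taken as groups, the receptors had a median log2 ratio of 0.21 (7 measured, from -1.93 to 1.07), the ligands 0.04 (6 measured, from -0.98 to 0.65) and the adaptors 0.15 (6 measured, from -0.56 to 0.46). Over all 6301 measured genes the median was 0.0089. At least 1.5-fold higher were 2 of the 19 genes (10.5%), against 15.6% of all measured genes, and at least 1.5-fold lower were 3 (15.8%), against 19.0%. At 2-fold the counts were 1 higher (TNFRSF8), with 4.38% of all genes, and 2 lower (TNFRSF9 and TNFRSF10B), with 7.30% of all genes. The median size of the log2 ratio, regardless of sign, was 0.42 for the 19 genes and 0.41 for all genes. These shares and sizes were near those of all measured genes. On the scale of GAPDH, 0 of the 19 genes were at least 1.5-fold higher and 14 lower. Of all measured genes, 0.778% were higher and 75.4% lower on that scale. Of the 19 genes, 11 had a ratio above the SD between probe sets at their signal and 4 had one above 2 SD, namely TNFRSF9, TNFRSF8, TNFRSF10B and LTA. The same counts were not made over all measured genes, so they do not set the family apart.

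**Figure D3:**
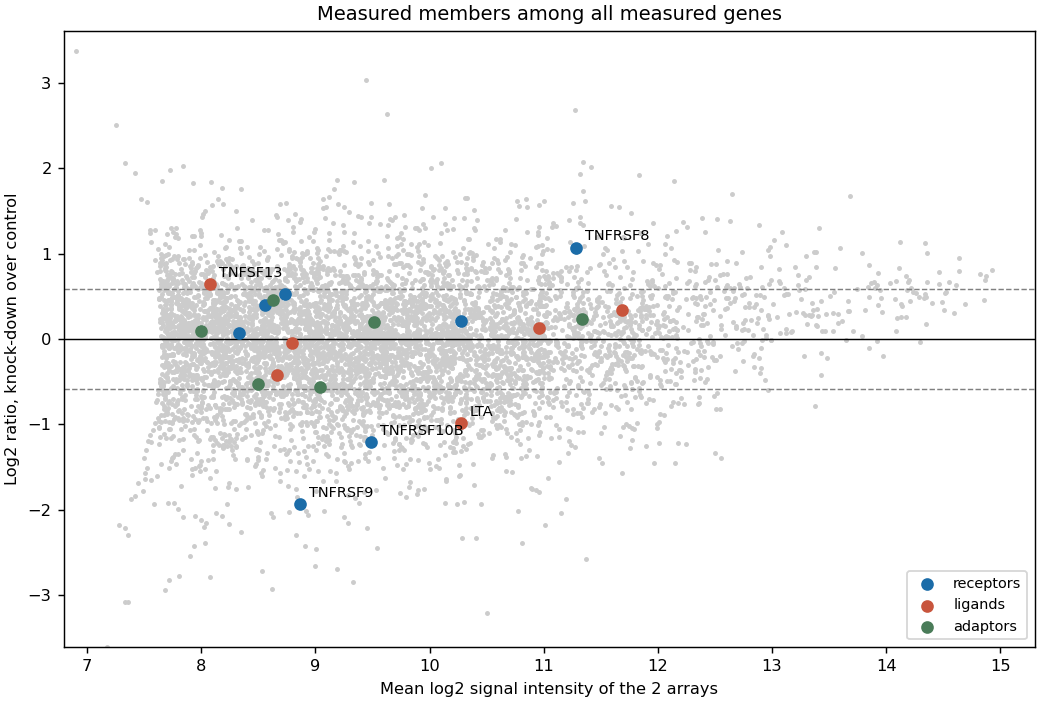
The vertical axis is the log2 ratio of knock-down to control and the horizontal axis the mean log2 intensity over the 2 arrays, for 6301 measured genes (grey), with the 19 measured receptors, ligands and adaptors in color. Dashed lines mark 1.5-fold, and 2 genes lie outside the axes. Of the colored points 14 lie between the dashed lines, and TNFRSF9 (-1.93) is the lowest.

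The remaining 19 genes, 12 receptors and 7 ligands, had mean signals from 4.04 to 171 and are given without a call. The brightest of them were TNFSF4 (118 after knock-down and 225 with control vector), TNFRSF12A (196 and 136) and CD27 (165 and 166), and the dimmest measured genes were TRAF5 and TNFSF13. TNFRSF10C, a decoy receptor for TRAIL that lies 33.9 kb from TNFRSF10B, gave 261 after knock-down and 54.9 with control vector at its brighter probe set and 103 and 8.64 at the other. Its log2 ratios of 2.25 and 3.57 were thus above 0 at both, at signals where the SD was 0.73 and 1.19. TNFRSF13B, the receptor TACI of B cells, gave 202 after knock-down and 70.4 with control vector (1.52, SD 0.73). TNFSF14, the ligand LIGHT, gave 162 and 80.7 (SD 0.73), and TNFRSF21, the death domain receptor DR6, gave 127 and 58.9, with ratios of 1.11 and 1.44 at its 2 probe sets. TNFSF18, the ligand of GITR, gave 160 and 106 (0.59, SD 0.73). On the other side lay TNFSF4, the ligand OX40L (-0.93, SD 0.73), and LTBR, the lymphotoxin beta receptor, which gave 14.3 and 34.1 (-1.25, SD 1.19).

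Of these 19 dim genes, 11 had a ratio above 0 and 8 one below. At this brightness a ratio above 0 was common, since 3583 of the 5662 genes under the filter had one. TNFRSF1A (26.6 after knock-down and 40.4 with control vector), TNFRSF1B (11.3 and 14.4), TNFRSF4 (66.8 and 53.3), TNFRSF17 (12.8 and 5.89), TNFRSF10D (5.14 and 2.95) and TNFRSF11B (18.6 and 8.45) all lay under 100 on both arrays. Among the ligands the same held for TNFSF8, the ligand of CD30 (56.1 and 85.4), TNFSF15 (49.9 and 28.8) and the RANK ligand TNFSF11, with a log2 ratio of -0.30. The ratios of these 9 genes under 100 all lay within the SD of 1.19 at that brightness.

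Beyond the family, 56 other genes of TNF receptor signalling were listed, and 34 of the 47 with a value were measured. At least 1.5-fold higher were 6 of them (17.6%) and at least 1.5-fold lower were 8 (23.5%), with a median log2 ratio of 0.07. One of the 6, SHARPIN, was under 200 on the control array. These shares were near those of all measured genes given above. FAS, a death domain receptor whose symbol falls outside the rule, gave 4501 after knock-down and 7947 with control vector, a log2 ratio of -0.82 (SD 0.26). All 4 probe sets of FAS were lower, down to -1.82. FADD, which links FAS and the TRAIL receptors to caspases, gave 595 and 619 (-0.06, SD 0.36), and CASP8 1260 and 1096 (0.20, SD 0.30). Like TNFRSF10B, FAS thus had less signal than in control cells, while FADD and CASP8 were within 1 SD of control.

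Genes of the list that act on ubiquitin lay on both sides of control. CYLD, a deubiquitinase that dampens NF-kB, gave 1012 after knock-down and 2582 with control vector (-1.35, SD 0.30), and its 5 probe sets at a mean signal of at least 200 ranged from -1.70 to -0.85. BIRC2, the ubiquitin ligase cIAP1, gave 822 and 1713 (-1.06, SD 0.30). RBCK1, a subunit of the linear ubiquitin ligase complex, gave 787 and 1831 (-1.22, SD 0.30) but had a ratio of 0.03 at its second probe set. SHARPIN, another subunit of that complex, gave 317 and 136 (1.22, SD 0.41), and it passed the filter of 200 only through the knock-down array, on which it was high.

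TNFAIP6, a secreted protein that TNF induces, was lowest of the list at -1.59, with 708 after knock-down and 2139 with control vector, and -1.51 at its other probe set. The TRAF binding proteins TANK (-0.78) and TDP2 (-1.07) and the ubiquitin receptor SQSTM1 (-0.61) were lower too, TANK with -0.19 at the least changed of its 3 probe sets. Higher were DAXX (1.39, and 0.50 at its second probe set), TNIP1 (0.85), which binds the deubiquitinase TNFAIP3, and the kinases MAP3K7 (0.81), TBK1 (0.81) and IKBKE (0.60). MAP3K7 had 4 probe sets, down to -0.03. TNFAIP3 itself, which ends NF-kB signals, gave 13833 after knock-down and 12949 with control vector (0.10, SD 0.26), and the kinase MAP3K14 had a log2 ratio of -0.12 (SD 0.30). Like TRAF1, these 2 genes lay within 1 SD of control.

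**Figure D4:**
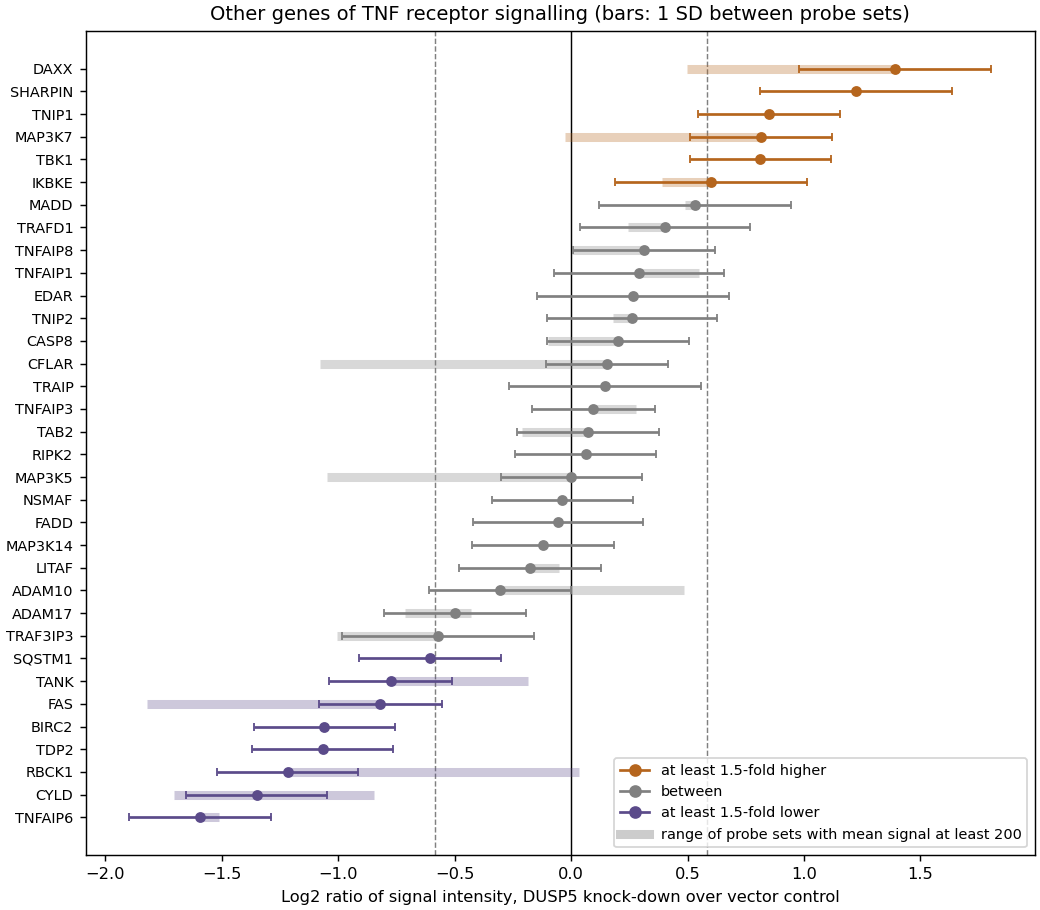
Other genes of TNF receptor signalling, 34 measured, with the log2 ratio of knock-down to control on the horizontal axis. Points are the brightest probe set with 1 SD between probe sets, and shaded bars span all probe sets of the gene with a mean signal of at least 200. TNFAIP6, CYLD and FAS lie left of the lower dashed line with every such probe set, and RBCK1 and MAP3K7 have probe sets near 0.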

How the data were processed

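RNA of L-428 cells was measured on 2 Affymetrix arrays of the human type 133A, 1 per condition. The authors processed the Cel files in Expression Console with MAS5. What they deposited is a linear signal intensity per probe set, after scaling of each array to a target of 500. Probe sets were named from the platform annotation of 2016. All 38 members were found in RefSeq (GRCh38.p14) with the same symbol. Each gene was represented by the probe set whose mean of the 2 signals was highest. The log2 ratio of knock-down over control was computed with no further normalization. Genes that reached a mean signal of 200 were called measured, and 1.5-fold was the size rule. The SD between probe sets came from pairs of 1 gene with both probe sets in the same band of mean signal. It assumes that probe sets of a gene report 1 difference, and splice variants would widen it.

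The members follow from the symbol rule alone. That rule, the rule for naming genes, the list of signalling genes and the markers were set with earlier results of these data known. Named were measured members, the larger differences of the list, pairs and members whose probe sets disagreed. The 7 probe sets that list a family symbol beside another gene were left out. MAS5 subtracts mismatch signals, which makes ratios of dim probe sets unstable, and signals of different probe sets cannot be compared as levels. Alternatives were quantile normalization, centring on the median, subtraction of a lowess fit (span 0.3), 32 added to each signal, other filters, the mean of all probe sets, omission of _s_at and _x_at probe sets, and a 2-fold rule. The ratio to GAPDH was added after seeing the data. Steps were tested on simulated data. Software was Python 3.11.15 (pandas 2.3.3, numpy 2.4.6, statsmodels 0.14.6, matplotlib 3.10.9).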

Additional observations from a re-analysis of the deposited data

How the results depend on the processing

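No paired analysis was possible because with 1 array for each condition there are no pairs, nor could a replicate be left out. Under the alternatives other than the scale of GAPDH, the log2 ratios of TNFRSF9, TNFRSF10B, LTA and TNFRSF8 all stayed past 1.5-fold, at -1.93 to -1.28, -1.21 to -0.60, -0.98 to -0.91 and 1.03 to 1.07, although TNFRSF9 was under a mean signal of 200 without its _s_at probe set. Of 195 values of single genes under these alternatives, 184 moved by less than the SD between probe sets, 11 by more, and none that was past 1.5-fold changed sign. Part of this count was fixed in advance. Centring subtracted a small constant, and averaging could not change a gene with a single probe set. Omission of _s_at and _x_at could not change a gene whose brightest probe set was of another type. At least 1.5-fold higher were 1 of the members with 32 added, 11 of 38 with no filter, 1 at a mean signal of at least 500, 4 with the mean of all probe sets (TNFRSF25 and TRADD in addition), and 1 without the types _s_at and _x_at, against 2 as reported. In the same order, 14.2%, 24.6%, 15.7%, 15.7% and 14.5% of all genes were higher, against 15.6%. Lower were 17.7%, 18.7%, 18.9%, 17.8% and 21.3%, against 19.0%. With no filter 7 of 38 members were lower, against 3 of 19. Of the called members, 60% were lower as reported, 75% with 32 added and at a mean signal of at least 500, 66.7% at 2-fold and without _s_at and _x_at, 50% after quantile normalization (3 higher and 3 lower), 42.9% when probe sets were averaged (4 and 3), 38.9% with no filter and 100% on the scale of GAPDH. These percentages rest on few genes and were not computed over all genes, of which more were lower than higher except with no filter. The receptor median was -0.50 at a mean signal of at least 500, where 4 receptors were left. Of the other signalling genes, 10 of 47 were higher with no filter and 3 of 27 with the filter at 500. Without _s_at and _x_at, 2 of 20 were higher and 4 lower, against 6 and 8 of 34. At 2-fold, 1 member and 2 other genes were higher, with 4.38% of all genes, and 5 other genes lower, with 7.30% of all genes. On the scale of GAPDH, which subtracts 0.98 from each ratio, no member and no other signalling gene was higher (0 of 19 and 0 of 34). Lower were 14 and 26 of them, where 75.4% of all measured genes were lower. The medians were -0.77 for receptors, -0.93 for ligands and -0.83 for adaptors. Of the genes past 1.5-fold as reported, TNFSF13 (-0.33), IKBKE (-0.38), MAP3K7 (-0.16), TBK1 (-0.16) and TNIP1 (-0.13) then changed sign. So did the smaller ratios above 0, such as that of CD40 (0.21 as reported and -0.77 on that scale). Except where fewer genes were left or a constant was subtracted, the cause of these changes was not tested. Low signal over background limits the 19 dim members.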
